A study of Homo sapiens with 2 samples.

Results

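The 10 genes described here encode cytosolic and small heat shock proteins, their partners and their main regulator: HSPB1, HSPB8, CRYAB, HSPA1A, HSPA1B, HSPA8, DNAJB1, BAG3, HSP90AA1 and HSF1. They were taken as every probe whose platform gene symbol is one of these names, which gave 13 of the 47323 probes of an Illumina bead array. All 10 genes were among the 11352 named genes detected on at least 1 array. RNA came from MHH-ES-1, an established human cell line of Ewing sarcoma, a tumour of bone and soft tissue. One array held total RNA of the wild-type line and the other that of a radiation-adapted derivative whose short sample name carries 4 Gy. How the dose was given, the time from irradiation to RNA, and the origin of the derivative as a clone or a pool are not stated in the labels. Each group was 1 sample, which leaves the variation from culture to culture unmeasured, and no p-value is given for any difference.

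Heat shock proteins keep other proteins folded. The small heat shock proteins HSPB1, HSPB8 and CRYAB hold unfolding proteins without using ATP, and the HSP70 proteins HSPA1A, HSPA1B and HSPA8 refold them in ATP-driven cycles. DNAJB1 is a J-domain partner that delivers clients to HSP70, BAG3 joins HSP70 to HSPB8 and to selective autophagy, and HSP90AA1 matures kinases and receptors. HSF1 is the transcription factor that induces many of these genes when unfolded protein accumulates, through heat shock elements, short inverted repeats of GAA.

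The stretches of promoter below show such repeats, because the genes that carry them did not share 1 ratio between the lines. They come from RefSeq windows of the build GRCh38.p14 and run 5′ to 3′ on the gene's strand, from 130 to 36 bases before an annotated start. Capitals mark GAANNTTC, TTCNNGAA and their overlapping joins of 3 units. The stretches lie at chr12:119178801-119178895 (plus strand) for HSPB8, chr6:31815413-31815507 (plus) for HSPA1A and chr6:31827608-31827702 (plus) for HSPA1B. Those of HSPA8, DNAJB1 and HSP90AA1 lie at chr11:123062172-123062266, chr19:14518433-14518527 and chr14:102087080-102087174, all on the minus strand.
HSPB8: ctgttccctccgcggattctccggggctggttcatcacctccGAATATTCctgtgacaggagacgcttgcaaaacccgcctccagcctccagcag
HSPA1A: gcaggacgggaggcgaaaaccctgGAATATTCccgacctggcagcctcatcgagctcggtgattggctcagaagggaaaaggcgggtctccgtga
HSPA1B: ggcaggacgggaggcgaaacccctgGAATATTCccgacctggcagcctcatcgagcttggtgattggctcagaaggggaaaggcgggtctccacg
HSPA8: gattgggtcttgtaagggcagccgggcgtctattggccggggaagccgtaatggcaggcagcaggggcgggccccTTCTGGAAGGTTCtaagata
DNAJB1: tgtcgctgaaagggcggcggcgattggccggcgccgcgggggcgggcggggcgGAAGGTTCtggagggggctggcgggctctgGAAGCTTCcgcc
HSP90AA1: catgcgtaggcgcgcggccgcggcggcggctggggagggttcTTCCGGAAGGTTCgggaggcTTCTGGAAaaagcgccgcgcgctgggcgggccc

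Of the 10 genes, 8 had a RefSeq window, 11 windows in all. CRYAB and HSF1 had no window, so their promoters were not examined. In the 250 bases before the start, 7 of the 11 windows, of 7 genes, held GAANNTTC or TTCNNGAA, against 11.6% of all 35116 windows of the same length. Each of these motifs reads the same on both strands, and GAANNTTC and TTCNNGAA can overlap. The join of 3 units, in which a GAANNTTC and a TTCNNGAA overlap by 3 letters in either order, stood in 2 of the 11 windows and in 0.441% of all. The genes with it were HSPA8, with 2 copies, and HSP90AA1, with 1 copy. HSPB8, HSPA1A and HSPA1B carried the same 8 letters, GAATATTC. The window of BAG3, and the other windows of DNAJB1 and HSP90AA1, held none of these letters, which says nothing about binding of HSF1 there. A match is a match of letters and not a binding site.

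**Figure D1:**
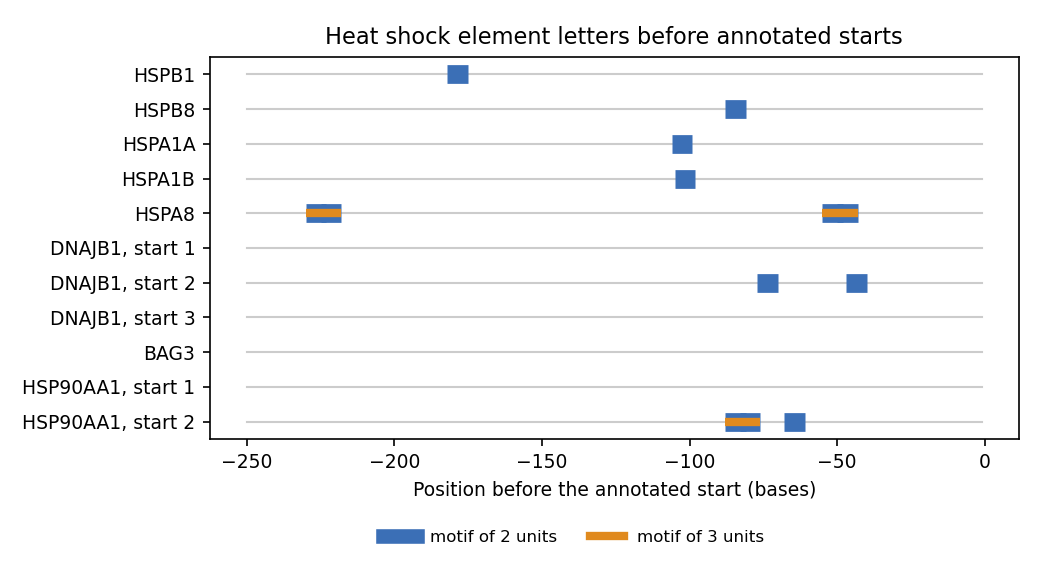
Positions of heat shock element letters in the 250 bases before each annotated start (x axis, bases before the start), 1 line per RefSeq window of the 8 genes. Blue blocks are motifs of 2 units and orange lines are joins of 3 units, which stand in HSPA8 (2) and HSP90AA1 (1).

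In the radiation-adapted cells 5 of the 10 genes passed a 2-fold rule upward and 0 downward. Over all 11352 detected genes the same rule took 12.4% as higher and 10.3% as lower. The 10 genes and the rule were chosen with earlier results of these data known, so this contrast is a description only. Of the 10 genes 9 had a ratio above 0, against 49.3% of all detected genes. For 3 of these genes, HSPB8, CRYAB and HSF1, detection on the radiation-adapted array only largely fixed the sign in advance. The 2 shares are therefore not a like comparison. The 5 higher genes were HSPB8, CRYAB, DNAJB1, HSPA1B and BAG3. With quantile normalization only, which leaves the background in, the count was 2 of 10 (HSPB8 and CRYAB), and the log2 ratios of HSPA1B, DNAJB1 and BAG3 were 0.93, 0.89 and 0.83. HSF1 fell just short of the rule, HSPA8 had a ratio of 1.80-fold, HSPA1A and HSPB1 differed by at most 1.25-fold, and HSP90AA1 was the 1 gene with a lower value. The median log2 ratio (radiation-adapted minus wild type) was 1.06 over the 10 genes and -0.01 over all detected genes. Over the 7 genes detected on both arrays it was 0.85, against -0.02 over all 9188 such genes, of which 10.9% passed the rule upward and 10.4% downward. Of the 7 genes, 3 passed upward and 0 downward.

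The ratios come from background-corrected, quantile-normalized log2 signals, and the signals quoted are the deposited bead signals, in which background is still included. A probe was called detected at a detection p-value under 0.01, that is, brighter than nearly all negative controls of its array. Where the wild-type value was not detected, it was replaced by the detection limit, the dimmest value among the probes that this array detected (log2 5.60), so the ratio is a bound, written "at least". Between different probes of 1 gene the log2 ratio had an SD of 0.45 over 2269 genes. This SD holds no difference between cultures.

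The arrays had median signals of 140.3 (wild type) and 142.4 (radiation-adapted), and 34.3% and 37.4% of probes were detected. All 10 annotated Ewing sarcoma markers were detected on both arrays, CD99 and NKX2-2 among them, and in the radiation-adapted cells 4 of the 10 passed 2-fold upward and 1 downward. Of 5 endothelial markers 0 were detected on either array, and of 7 epithelial markers 1, KRT8, with signals of 274 in the wild type and 151, not detected, in the derivative. EPCAM and CDH1 were not detected. Of 8 fibroblast markers 7 were detected, 2 of them at least 2-fold higher and 3 lower, and PDGFRA was not detected. Their signals summed to 1759 in the wild type and 3044 in the derivative, but their median log2 ratio was -0.78. The higher genes were THY1 (signals of 145.5 and 1510) and COL1A1 (187 and 814). The lower genes were DCN (554 and 126), LUM (320 and 129) and COL3A1 (234 and 166). Of 6 leukocyte markers 3 were detected, with sums of 606 and 1001, and PTPRC, CD3E and ITGAM were not detected. The higher sum came from CD68, with signals of 250 and 682 at the probe used, while its other probe had a log2 ratio of -2.07. LYZ was lower, with signals of 204 and 159, and CD14 differed little, with 152 and 161. Muscle makes much CRYAB and HSPB8, and 1 of 8 annotated muscle markers was detected: the MYH3 signals were 133 and 169, while DES, MYOD1, MYOG, MYF5, ACTA1, TTN and CKM were not detected on either array. The part of other cell types in the ratios below was not tested.

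Among the small heat shock proteins the 3 genes parted widely. HSPB8, a partner of BAG3, had a signal of 122 in the wild-type cells (detection p-value 0.775) and 589 in the radiation-adapted cells. It was thus not detected in the wild type and brighter than all negative controls in the derivative. The ratio was at least 9.04-fold (log2 ratio at least 3.18). This bound depended on the treatment of background, with log2 values of 2.52 at an offset of 50 in place of 16 and 1.76 with quantile normalization only. Of the 1532 genes detected on the radiation-adapted array only, 55, HSPB8 included, had a bound this high.

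CRYAB, which encodes alpha B-crystallin, a chaperone of the lens and of muscle filaments, had signals of 132 in the wild-type cells (detection p-value 0.409) and 385 in the radiation-adapted cells. Like HSPB8, it was detected in the derivative only. The ratio was at least 5.02-fold (log2 ratio at least 2.33), with log2 bounds of 1.75 at an offset of 50 and 1.13 with quantile normalization only. In the main values 120 of the 1532 genes had a bound at least as high. Among these 1532 genes, 26.1% had a bound of 2-fold or more.

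HSPB1, which encodes HSP27, an actin-associated small heat shock protein, had signals of 14267 in the wild-type and 14179 in the radiation-adapted cells. These signals were nearly equal before normalization, and the normalized log2 ratio was 0.24 (1.18-fold), less than the SD between probes. Its sign depended on scaling, with -0.08 after median scaling and -0.01 with no scaling between the arrays. Of the other small heat shock protein genes, 1 of the 6 annotated ones was detected. This was HSPB6, which encodes a heart and muscle family member, with signals of 326 in the wild type and 124 in the derivative (detection p-value 0.718). HSPB6 was at least 5.83-fold lower, the opposite of HSPB8 and CRYAB. HSPB2, which lies beside CRYAB, had signals of 121 and 128 and was not detected on either array (named after its values were seen).

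**Figure D2:**
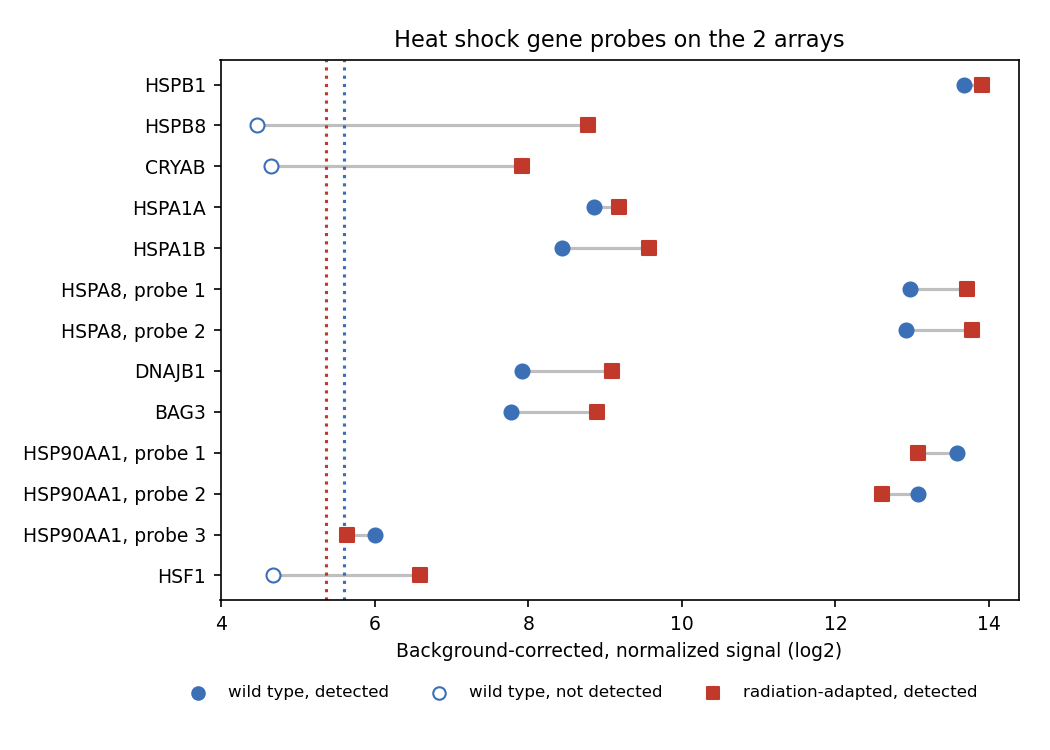
Normalized log2 signal (x axis) of the 13 probes of the 10 genes, 1 line per probe, with the wild type as blue circles and the radiation-adapted array as red squares; open circles are not detected. Dotted lines mark the detection limit of each array (5.60 and 5.36). Levels are comparable between the arrays on a line and not between lines.

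Of the 3 HSP70 genes HSPA1B passed the 2-fold rule, and HSPA1A and HSPA8 did not. HSPA1B, a stress-inducible HSP70, had signals of 426 in the wild-type cells and 922 in the radiation-adapted cells. HSPA1A, its neighbour on chromosome 6, which encodes a nearly identical protein, had signals of 540.5 and 739. Both were detected on both arrays, and both were brighter in the derivative. The ratio was 2.19-fold for HSPA1B (log2 ratio 1.13) and 1.25-fold for HSPA1A (log2 ratio 0.32). The former was 2.50 times the SD between probes and the latter 0.709 times. Each gene had 1 probe, the probe sequences were not used here, and so signal shared between these paralogues could not be separated. Over the 250 bases before their starts the genes were 93.6% identical, with 235 identical bases, 14 mismatches and 2 gap positions.

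HSPA8, the constitutive HSP70 of the cytosol, had 2 probes, annotated to different transcripts. One gave signals of 8253 in the wild-type and 12828 in the radiation-adapted cells. The other gave 8538 and 12332. The ratios were 1.80-fold (log2 ratio 0.85) and 1.68-fold (0.75), and the probes thus differed from each other by less than the SD between probes. HSPA6, an HSP70 gene known for being silent until strong heat stress, was not detected on either array at its 2 probes, with signals of 125 and 127 in the wild type and 149 and 131 in the derivative (named after its values were seen).

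The HSP70 partners DNAJB1 and BAG3 moved by similar amounts. DNAJB1 had signals of 329 in the wild-type and 699.8 in the radiation-adapted cells. BAG3 had signals of 309 and 629. Both were detected on both arrays. The ratios were 2.24-fold for DNAJB1 (log2 ratio 1.17) and 2.17-fold for BAG3 (1.12), which are 2.57 and 2.47 times the SD between probes. Of the 9188 genes detected on both arrays, 8.22% had a ratio at or above that of DNAJB1, 8.67% at or above that of HSPA1B and 8.87% at or above that of BAG3.

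HSF1 itself had signals of 133 in the wild-type cells (detection p-value 0.386) and 223 in the radiation-adapted cells. It was detected in the derivative only, at its 1 probe. The bound was 1.99-fold (log2 ratio at least 0.99), next to the 2-fold rule from below, while BAG3 stood next to it from above. The measured log2 values, 4.67 and 6.59, differ by 1.92, but the lower of them lies under the detection limit. Whether HSF1 passed 2-fold depended on the setting: it did so under 5 of 9 other settings of processing that keep it, with bounds or values from 0.37 to 1.92.

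HSP90AA1, the inducible cytosolic HSP90, had 3 probes. The brightest gave signals of 13256 in the wild-type and 8395 in the radiation-adapted cells, the next 9111 and 5908, and the dimmest 171 and 169. All 3 were detected on both arrays and had normalized values lower in the derivative. The log2 ratios were -0.50, -0.46 and -0.36, so the probes lay within 0.45 of one another. The brightest was 1.42-fold lower, 1.11 times the SD between probes. The raw signals of the dimmest probe were nearly equal.

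**Figure D3:**
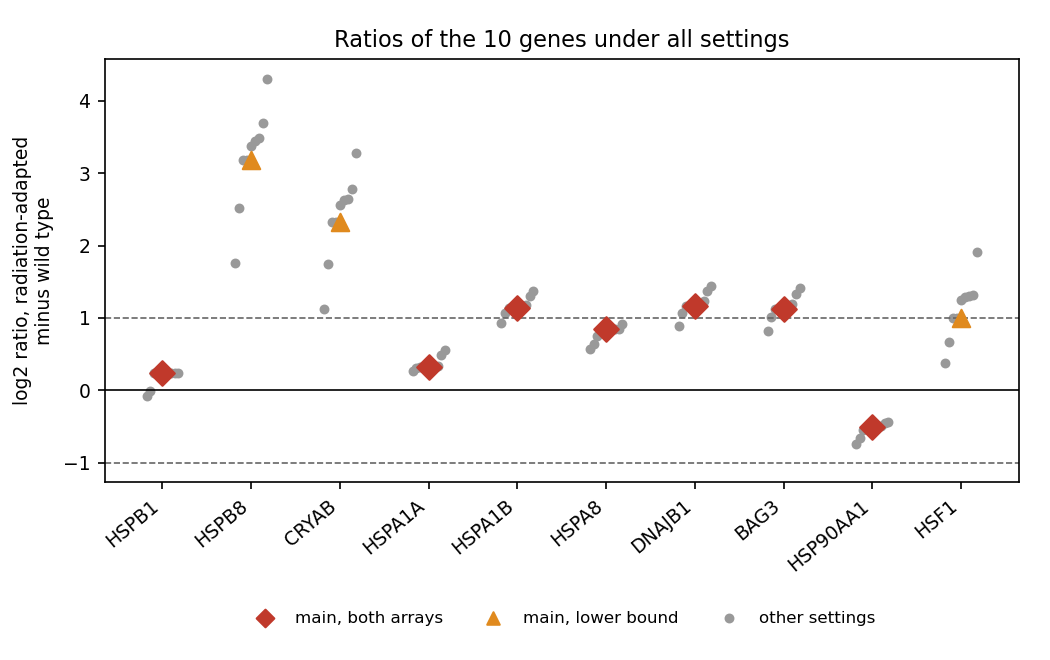
Log2 ratio (y axis, radiation-adapted minus wild type) of each of the 10 genes. Red diamonds are ratios measured on both arrays, orange triangles are lower bounds, grey points are other settings of processing and dashed lines mark 2-fold. HSPB8 and CRYAB stay above 1 under each setting shown, and HSP90AA1 below 0.

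Other genes of protein folding were grouped in 9 companion lists. Of 96 listed companion genes 91 were annotated and 76 detected, of which 3 passed 2-fold upward and 8 downward, against 12.4% and 10.3% of all detected genes. Their median log2 ratio was -0.16. The 5 companions without an annotated probe were not analysed here.

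Among the HSP70 and HSP110 relatives, 2 of 7 detected genes were higher and 1 was lower (median -0.02). HSPA12A, a distant HSP70 relative, had signals of 126 in the wild type (detection p-value 0.623) and 395 in the derivative and was at least 5.20-fold higher. HSPA2, the HSP70 of male germ cells, had signals of 134 (detection p-value 0.342) and 251 and was at least 2.53-fold higher. HSPA13, an HSP70-like protein of microsomes, had signals of 218 and 160.4 and was 2.75-fold lower. Its value in the derivative (detection p-value 0.00649, log2 5.42) lay just above the detection limit of that array, 5.36.

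Of 17 detected J-domain genes 0 were higher and 2 lower (median 0.15). DNAJA4, a J-domain partner of HSP70, had signals of 602 in the wild type and 135 in the derivative (detection p-value 0.282) and was at least 12.9-fold lower, opposite to DNAJB1. DNAJB5 had signals of 249 and 194 and was 2.14-fold lower. Its other probe had a log2 ratio of -0.67.

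Of 11 genes of HSP90 and its co-chaperones 0 were higher and 2 lower (median -0.09). PPID, a cyclophilin that binds HSP90, had signals of 370.0 and 213 and was 3.30-fold lower. SUGT1, an adaptor of HSP90, had signals of 362 and 259 and was 2.16-fold lower. HSP90AB1, the constitutive HSP90 and closest relative of HSP90AA1, had signals of 6904 and 8547 and a log2 ratio of 0.49, against -0.50 for HSP90AA1 (named after its value was seen).

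Of 5 detected genes of the HSF family and its regulators 1 was higher and 1 lower (median 0.23). EP300, an acetyltransferase that modifies HSF1, had signals of 240.4 and 536 and was 2.70-fold higher. HSF2BP, an HSF2-binding protein with a role in meiosis, had signals of 207 and 147 (detection p-value 0.0597) and was at least 2.56-fold lower. HSF4 was not detected on either array.

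The remaining lists held 1 gene past 2-fold. Of 14 detected genes of the chaperonin TRiC and prefoldin, which fold actin and tubulin, only PFDN6 passed, with signals of 1020 and 583 and a 2.21-fold lower value (median of the list -0.22); the highest ratio was 0.45, of PFDN4. Of 8 BAG and other HSP70 regulator genes 0 passed at the probe used, with a median of -0.31. They ran from HSPBP1 at -0.95 (-1.86 at its other probe) to BAG4 at 0.81 (0.07 at its other probe). The other probes of STUB1 and BAG5 also lay past 2-fold lower, at -1.21 and -1.10. Of 8 mitochondrial chaperone genes 0 passed, from TRAP1 at -0.92 to HSPE1 at 0.37 (median -0.32). Of 5 detected autophagy partners of BAG3 0 passed, from HDAC6 at -0.63 to YAP1 at 0.93 (median 0.06). SYNPO2, an actin-linked partner of BAG3, was not detected on either array.

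**Figure D4:**
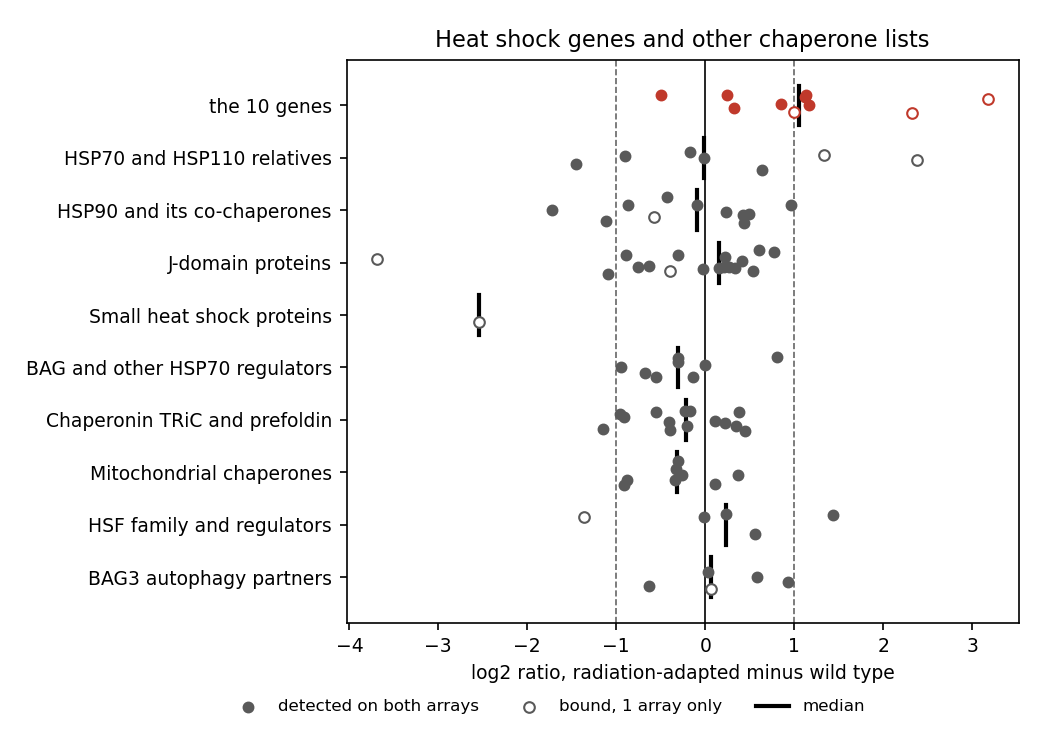
Log2 ratio (x axis, radiation-adapted minus wild type) of the 10 genes (red) and of the detected members of the 9 companion lists (grey), with list medians as black bars. Filled points were detected on both arrays, open points are bounds and dashed lines mark 2-fold. The median is 1.06 for the 10 genes and between -0.32 and 0.23 for the lists with more than 1 detected member.

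The genes were also set beside their 20 nearest detected neighbours in RefSeq gene order, 10 on each side, a comparison chosen after the data were seen. In the main values HSPB8, CRYAB, DNAJB1 and HSF1 had ratios above all 20 of their neighbours. Other settings were not compared with neighbours. Those of HSPB8, CRYAB and HSF1 are bounds, and neighbours detected on 1 array only enter as bounds too. The bound of HSF1, 0.99, was 0.66 at an offset of 50 and 0.37 with quantile normalization only. For HSPB8 the neighbours had a median of -0.42 and a highest value of 0.88, for DNAJB1 -0.33 and 0.93, and for HSF1 0.28 and 0.88. For CRYAB, on chromosome 11, they had a median of 0.55 and a highest value of 2.16. HSPA1B stood above 19 of its 20 neighbours, of which the median was -0.46, and BAG3 above 18 of 20 (median 0.19). HSPA1A and HSPA1B count among each other's neighbours here.

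HSPA8 and HSP90AA1 lay near the middle of their neighbourhoods. Of the 20 neighbours of HSPA8 on chromosome 11, 16 were above 0, 9 were at least 2-fold higher and 9 had a higher ratio than HSPA8. Their median was 0.66, so that HSPA8 exceeded it by 0.19. Among the higher neighbours were SNORD14D (1.67) and SNORD14C (1.87), small RNA genes next to HSPA8 in this order. Both count among the 20 neighbours, the 9 at least 2-fold higher and the 9 above HSPA8, and both enter the median. Whether they lie within HSPA8 or share its transcript was not examined, so they may not be separate neighbours. The neighbours of HSP90AA1 on chromosome 14 had a median of -0.70, with 3 of 20 above 0, and HSP90AA1 exceeded it by 0.20. HSPA1A and HSPB1 exceeded the medians of their neighbours by 0.76 and 0.61. After the neighbours' median was subtracted, 4 of the 10 genes were at least 2-fold higher: HSPB8 (at least 3.60 on the log2 scale), CRYAB (at least 1.78), HSPA1B (1.59) and DNAJB1, with BAG3 at 0.93. The part of such regional shifts in the ratios was not tested.

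**Figure D5:**
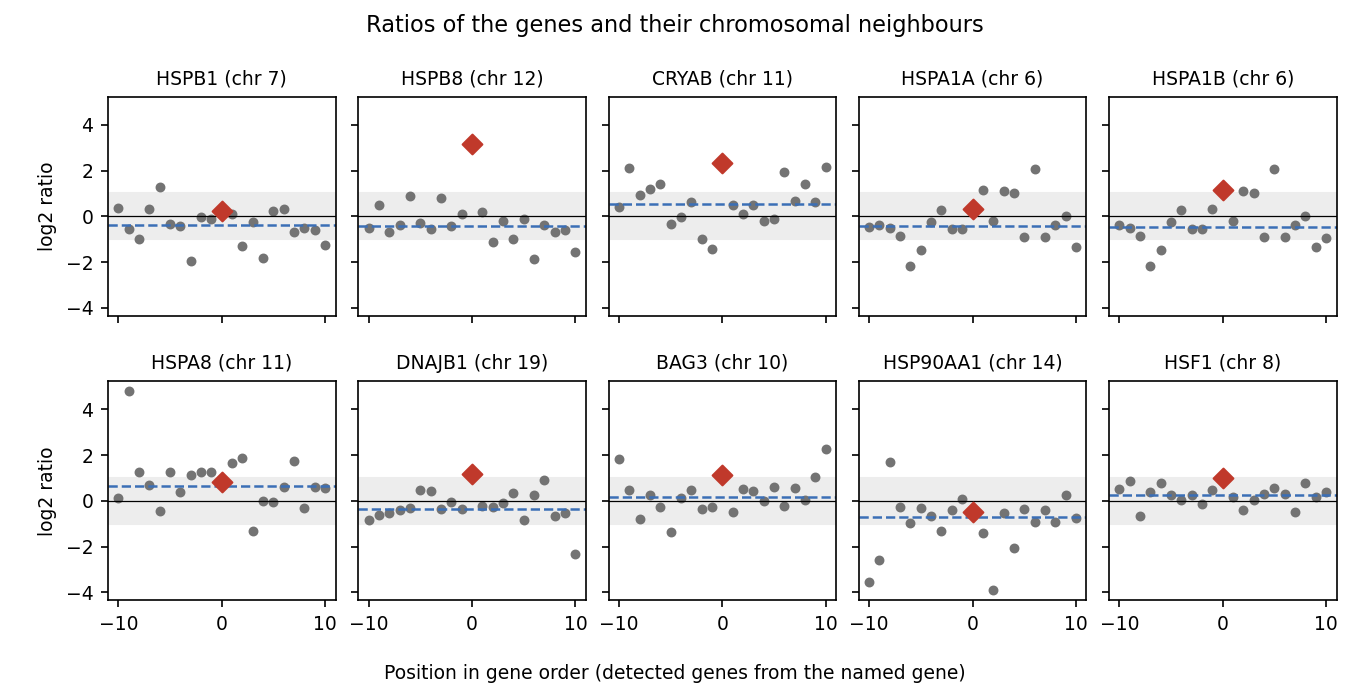
Log2 ratio (y axis, radiation-adapted minus wild type) of each of the 10 genes (red diamonds) and its 20 nearest detected neighbours (grey) by position in gene order (x axis); the dashed blue line is the neighbours' median and the grey band marks less than 2-fold. HSPB8 and DNAJB1 stand above neighbours with medians of -0.42 and -0.33, and HSPA8 lies 0.19 above its neighbours' median.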

How the data were processed

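RNA of 2 samples was measured on Illumina bead arrays. Per the labels' protocols, RNA was extracted with Trizol and made into biotin-labelled cRNA. Per the file headers, the deposited table gives for each probe a mean bead signal, a linear intensity that is neither background-corrected nor scaled, as its values show, and a detection p-value against negative controls. The authors' processed table holds linear intensity values with sorted columns equal to within 0.2; the steps that gave both tables are not stated in the labels or headers.

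Signals were background-corrected and quantile-normalized with the neqc method of limma 3.58.1 in R 4.3.3 (offset 16). The method was tried on simulated data in which only bright probes were changed. That trial does not cover genes undetected in the wild type, such as HSPB8, CRYAB and HSF1. Each gene took its detected probe with the highest mean. Bounds on the wrong side of 0 gave no fold but entered medians. Gene names came from the platform annotation (30113 probes with 1 gene, 8 with several, 17202 unnamed), and chromosomes, gene order and promoter windows from RefSeq, GRCh38.p14. The files name no build.

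Members, lists and rules were chosen with earlier results of these data known. Named companions are those past 2-fold and, in lists with fewer than 2 such genes, also the highest and lowest gene, except where marked. HSF4, SYNPO2, STUB1 and BAG5 were named in addition. A further alternative was added after the data were seen. The number of arrays limits the precision.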

Additional observations from a re-analysis of the deposited data

How the results depend on the processing

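No paired analysis was possible because each group holds 1 array. Under 10 other planned settings and 1 added later, 0 of the 5 genes past 2-fold in the main values changed sign. Genes outside the 10 were not checked for this. For HSPB8 and CRYAB, detection in the derivative only largely fixed the sign in advance. With quantile normalization only, which leaves the background in, 2 of the 10 genes (CRYAB and HSPB8) passed 2-fold upward, 1 companion gene was higher and 2 were lower, and of all genes 686 were higher and 554 lower, against 1403 and 1168. With detection required on both arrays, which leaves out HSPB8, CRYAB and HSF1, 3 of 7 genes were higher, with 1 companion higher and 5 lower. Companion genes counted as higher numbered 6 after median scaling and 6 without scaling, and 4 were lower with an offset of 50. Those counted as lower numbered 11 in the authors' processed table and 11 with each gene's probe of lowest detection p-value. The cause of the changes under scaling was not tested. Median scaling and no scaling shifted the median over all genes, -0.01 in the main values, to 0.16 and 0.23, and the share of higher among the genes past 2-fold from 54.6% to 67.0% and 71.7%. The ratios of HSPB8 ranged from 1.76 to 4.31 and those of CRYAB from 1.13 to 3.27, while HSPA1B, DNAJB1 and BAG3 missed 2-fold with quantile normalization only, at 0.93, 0.89 and 0.83, and BAG3 also after the neighbours' median was subtracted, at 0.93. The lack of detection in the wild type limits HSPB8, CRYAB and HSF1 to bounds.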
